A study of Mus musculus with 12 samples.

Results

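The Atf4 arm of the integrated stress response was followed in bone marrow RNA through 9 genes, Atf4, Atf5, Ddit3, Trib3, Asns, Chac1, Sesn2, Psat1 and Phgdh. Rows were matched by gene symbol, and each symbol matched 1 of the 34745 genes in the deposited table. All 9 had enough counts to be tested in each of 6 comparisons between groups.

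In this response, kinases that sense amino acid shortage, misfolded protein in the endoplasmic reticulum, low haem or double-stranded RNA phosphorylate the initiation factor eIF2alpha. General translation then slows, while the mRNA of the transcription factor Atf4 is translated more, so that much of the control of Atf4 lies in its translation and is not seen in RNA levels. Atf4 protein, paired with C/EBP factors, switches on genes for amino acid synthesis and uptake, and in prolonged stress it acts with Ddit3 (CHOP), Trib3 and Chac1 in a programme known for cell death.

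Total RNA of femoral bone marrow cells was sequenced from 12 male mice of the outbred ICR strain, 3 per group. Their age was not given in the sources used here. Mice of the normal group got vehicle and no cyclophosphamide. The other 3 groups all received cyclophosphamide, a DNA-alkylating drug that depletes dividing blood cells, on days 5 to 7 at a daily 80 mg/kg. The model group got vehicle besides, the QJSB group the herbal granule Qi-Jing-Sheng-Bai at a daily 3 g/kg, and the leucogen group the leucocyte-raising drug leucogen at a daily 20 mg/kg, over 1 week. Both drugs were thus studied only on top of cyclophosphamide. The table heads its columns Blank, Model, Stilbene and Positive. Blank was read as the normal group and Positive as leucogen from what the words mean, which left Stilbene for QJSB, so every result for these 3 groups rests on that reading.

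Library totals ran from 11172547 to 18545198 counts. Levels are given as CPM (counts scaled to library size, with TMM factors over all 12 libraries), and genes are compared with each other only by FPKM, which also divides by transcript length. The cell composition of the marrow differed greatly between groups. Summed erythroid markers lay at 16087 to 17492 CPM in normal libraries and at 238 to 1144 CPM in the 9 libraries with cyclophosphamide. Summed promyelocyte markers lay at 751 to 964 CPM in normal, 6664 to 9601 CPM in model, 8239 to 9062 CPM in QJSB and 3493 to 4615 CPM in leucogen libraries. In bulk RNA, fewer cells of a type and less RNA per cell cannot be told apart.

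The promoters of these genes were searched for TGATGNAAN, the C/EBP-ATF response element through which Atf4 dimers act, on both strands and with no other motif. The windows were those of RefSeq (GRCm38.p6), 300 bases with 250 before and 50 after each transcription start, and all 9 genes had at least 1 window. A match was found for 3 of the 9, Asns, Chac1 and Trib3, against 4.50% of the 27025 genes in that table (3.95% of 32851 windows). These windows are printed because they hold the element, with Phgdh beside them as a gene of large change without a match. They run 5′ to 3′ on the gene's strand from 250 bases before to 30 bases after the start, and capitals mark the match.
Asns promoter, chr6:7693180-7693459 (minus strand): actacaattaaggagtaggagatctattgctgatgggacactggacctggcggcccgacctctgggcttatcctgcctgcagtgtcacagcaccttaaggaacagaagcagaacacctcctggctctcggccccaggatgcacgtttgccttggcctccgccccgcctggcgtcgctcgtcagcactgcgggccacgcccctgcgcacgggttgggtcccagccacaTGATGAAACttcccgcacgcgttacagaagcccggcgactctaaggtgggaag
Chac1 promoter, chr2:119350992-119351271 (plus strand): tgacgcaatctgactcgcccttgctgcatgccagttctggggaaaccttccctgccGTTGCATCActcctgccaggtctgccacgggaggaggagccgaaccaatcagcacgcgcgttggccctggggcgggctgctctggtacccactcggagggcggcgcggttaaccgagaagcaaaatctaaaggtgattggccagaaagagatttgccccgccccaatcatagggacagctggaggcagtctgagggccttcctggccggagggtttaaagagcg
Trib3 promoter, chr2:152344031-152344310 (minus strand): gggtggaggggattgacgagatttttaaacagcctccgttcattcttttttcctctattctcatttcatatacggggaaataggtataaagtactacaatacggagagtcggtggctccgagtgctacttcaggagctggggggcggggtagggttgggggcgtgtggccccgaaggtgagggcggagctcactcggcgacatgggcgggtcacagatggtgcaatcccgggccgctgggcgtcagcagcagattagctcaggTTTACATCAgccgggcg
Phgdh promoter, chr3:98339940-98340219 (minus strand): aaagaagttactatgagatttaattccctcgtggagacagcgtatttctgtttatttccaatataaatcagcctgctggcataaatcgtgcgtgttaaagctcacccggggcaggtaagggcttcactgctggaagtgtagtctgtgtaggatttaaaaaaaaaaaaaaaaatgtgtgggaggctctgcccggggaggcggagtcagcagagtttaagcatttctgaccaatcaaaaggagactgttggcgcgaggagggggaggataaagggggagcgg
In Asns the match began 23 bases before the start and read on the gene's own strand. In Chac1 it began 194 bases before the start and in Trib3 13 bases after it, both on the opposite strand. For the other 6 genes these letters were not in the window, which says nothing of whether Atf4 acts on them elsewhere.

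The RNA of the serine synthesis enzymes Psat1 and Phgdh was higher than normal in the model and QJSB groups. In the leucogen group, which also got cyclophosphamide, it was not. The RNA of Atf4 itself did not pass the cutoffs in model against normal, where its interval ran from 0.790 to 1.52 of the normal level. In leucogen mice Atf4 was 1.55-fold below normal. In the model group Psat1 was 2.77-fold and Phgdh 2.96-fold above the normal group. Atf5 was 4.15-fold and Chac1 3.64-fold above it, and Ddit3 was 1.62-fold below it. For Psat1 and Phgdh these differences passed the cutoffs given below in each of 14 settings, the main one and 13 alternatives. For Atf5 they did so in 10, for Chac1 in 8 and for Ddit3 in 7. QJSB mice did not differ detectably from model mice in any of the 9 genes. In leucogen mice Psat1, Phgdh, Trib3, Sesn2 and Atf4 were lower than in model mice, with Psat1 4.14-fold lower. These falls passed in each of the 14 settings for Psat1 and Phgdh, in 10 for Sesn2 and in 9 each for Trib3 and Atf4.

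**Figure D1:**
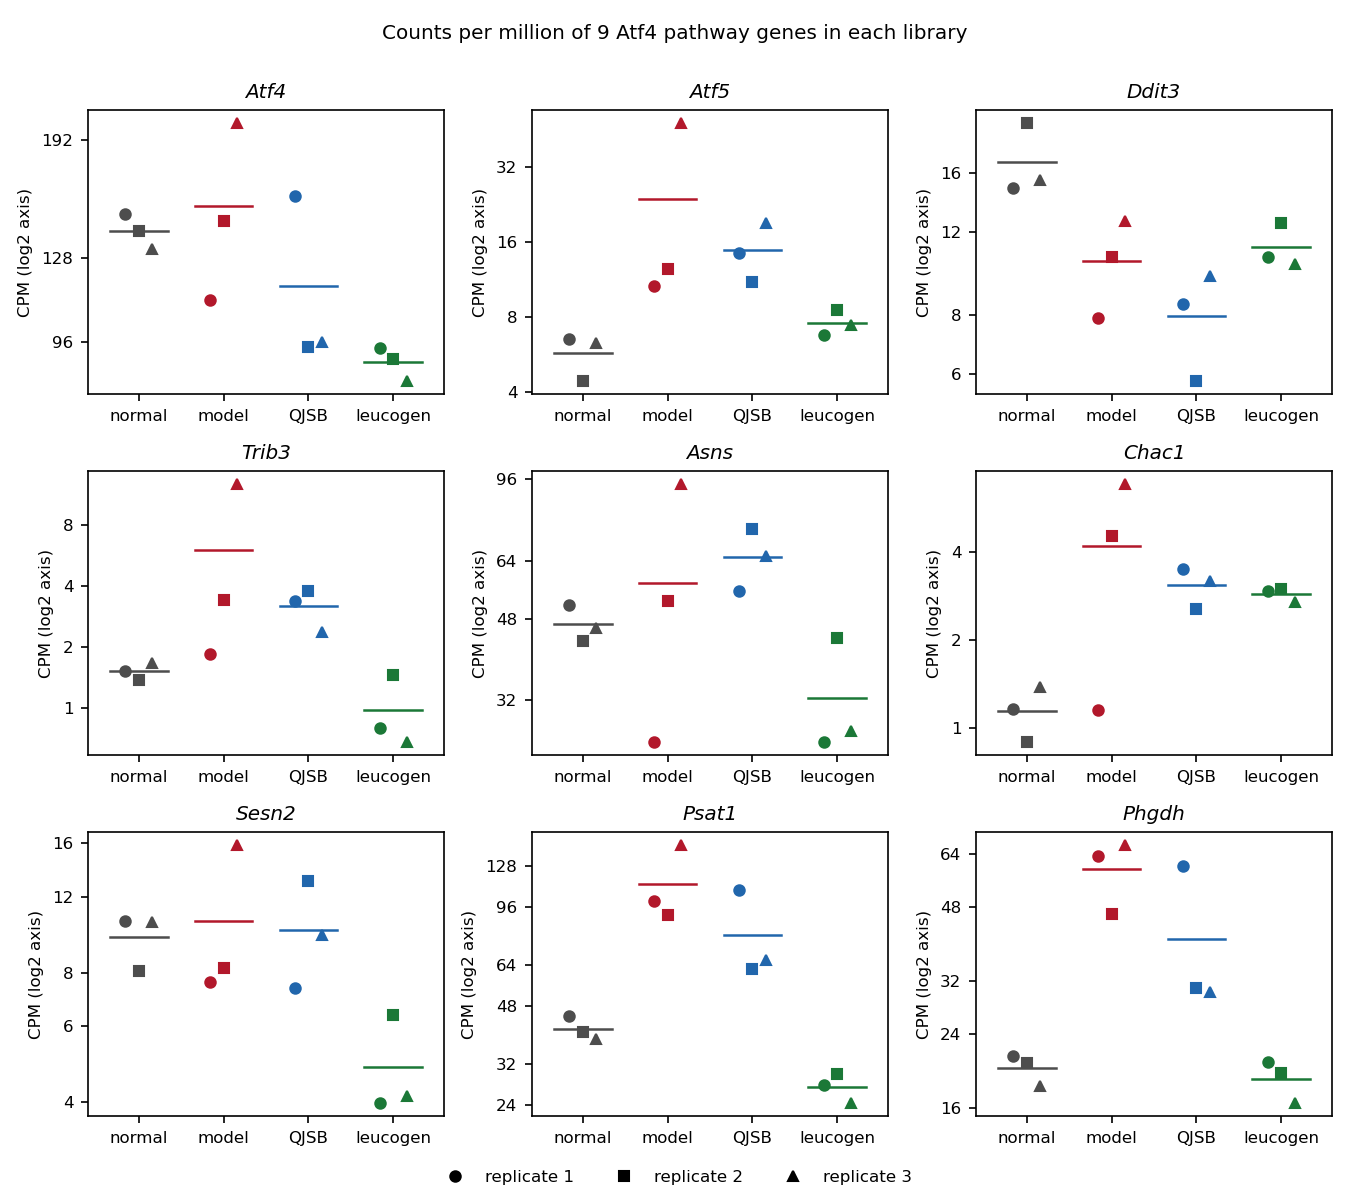
Level of each of the 9 genes in every library, in CPM on a log2 axis, by group. Points are single mice with the shape giving the replicate number, and horizontal lines are arithmetic group means. Psat1 and Phgdh in all 3 model libraries lie above all normal and leucogen libraries, and model 3 is the highest model library in every panel.

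By FPKM, Atf4 was the most abundant of the 9 in every group, with means of 79.95 in normal, 94.4 in model, 68.5 in QJSB and 49.6 in leucogen libraries. The order below it changed with treatment. In normal marrow Asns came next at 12.2 FPKM, ahead of Ddit3 at 7.21, Phgdh at 6.82 and Psat1 at 5.76 FPKM. In model marrow Phgdh (22.0 FPKM) and Psat1 (17.3 FPKM) stood above Asns (16.1 FPKM), whose own libraries differed by more than these gaps. Trib3 was the lowest in every group, with 0.470 FPKM in normal, 1.97 in model, 1.00 in QJSB and 0.292 in leucogen libraries.

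Among 14752 genes tested between model and normal, 35.1% were called, which required a fold change over 1.5 in either direction and an adjusted p under 0.05. Adjusted p here is that of edgeR's quasi-likelihood test after Benjamini-Hochberg adjustment over all genes tested. Of the 9 genes, 4 rose (16.1% of all genes did), 1 fell (19.0% of all genes did) and 4 were not called. The median log2 fold change of the 9 was 1.47, beside 0.024 for all genes tested. The 9 were chosen with earlier results of these data known, which limits what a comparison with all genes can show. The 3 model libraries did not overlap the 3 normal ones for 5 of the 9, and for 55.5% of all genes.

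Between QJSB and model, 0% of 14486 genes were called at that cutoff by edgeR, and 0 of the 9. DESeq2 called 8 genes, none of the 9 among them. The study's own cutoff, which its authors applied with DESeq2, left the p unadjusted. In the edgeR fit 446 genes (3.08%) passed that cutoff and again 0 of the 9 (at any fold change, 723 genes had an unadjusted edgeR p under 0.05). The groups overlapped for all 9, where 9.80% of all genes did not overlap. Between leucogen and model, 23.1% of 14184 genes were called, and 5 of the 9 were, each of them lower (11.5% of all genes were called lower). The groups did not overlap for 6 of the 9, beside 46.0% of all genes. Between QJSB and leucogen, 24.6% of 14266 genes were called, and 6 of the 9 were, each of them higher in QJSB (12.9% of all genes were called higher). Against normal, QJSB had 6 of the 9 called (37.9% of 14817 genes), 5 higher (18.0%) and 1 lower (19.9%), and leucogen had 3 called (37.7% of 14637 genes), 1 higher (17.8%) and 2 lower (19.8%). These comparisons share libraries with each other: model serves in 3 of them, as does each of the other groups.

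**Figure D2:**
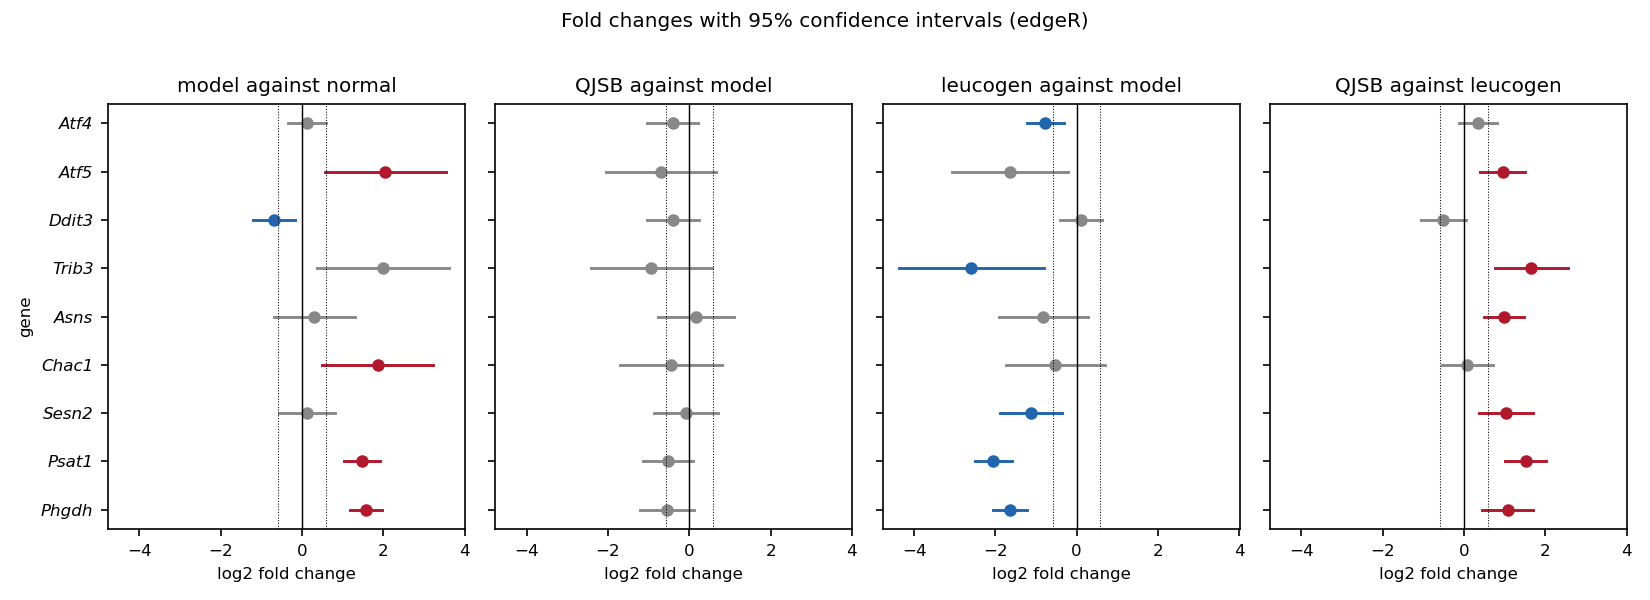
Log2 fold change of each gene in 4 comparisons, as points with 95% confidence intervals from edgeR. Red marks genes called higher, blue genes called lower and grey genes not called, and dotted lines stand at a fold change of 1.5 in either direction. Psat1 rose by 1.47 in model against normal and fell by 2.05 in leucogen against model, while every interval of QJSB against model includes 0.

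Psat1 and Phgdh encode enzymes of the pathway that makes serine from a glycolysis intermediate. Psat1 (chr19:15904678-15947337 in the GRCm38 coordinates of the deposited table) read 44.5, 40.0 and 38.0 CPM in the normal libraries 1 to 3, and 100.1, 90.5 and 148 CPM in the model libraries. It read 108, 62.1 and 66.2 CPM with QJSB and 27.5, 29.7 and 24.2 CPM with leucogen. The model libraries lay above all normal libraries, the leucogen libraries below all normal ones, and QJSB 1 lay inside the model range with QJSB 2 and 3 below it. Psat1 rose from normal to model by a log2 fold change of 1.47 (SE 0.20, edgeR adjusted p = 0.000631) and was lower in leucogen than in model by -2.05 (SE 0.20, edgeR adjusted p = 0.00158).

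Phgdh (chr3:98313170-98339990), which catalyses the committed step of the same pathway, read 21.3, 20.4 and 18.1 CPM in normal and 63.3, 46.1 and 67.3 CPM in model libraries. The QJSB libraries gave 60.1, 30.8 and 30.2 CPM and the leucogen libraries 20.6, 19.4 and 16.4 CPM. As with Psat1, model stood apart from normal and from leucogen, and QJSB 1 read about as model did while QJSB 2 and 3 lay between model and normal. The rise to model was 1.57 on the log2 scale (SE 0.17, edgeR adjusted p = 0.000241), and leucogen against model gave -1.64 (SE 0.18, edgeR adjusted p = 0.00177). Psat1 and Phgdh were called in both of these comparisons in each of 14 settings, the main one and 13 alternatives that included leaving out each library.

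For QJSB against model the log2 fold changes were -0.53 for Psat1 (95% confidence interval -1.14 to 0.08) and -0.56 for Phgdh (interval -1.23 to 0.11). The other 7 genes lay between -0.93 for Trib3 (interval -2.43 to 0.56) and 0.17 for Asns (interval -0.76 to 1.09), with Atf4 at -0.41 (interval -1.05 to 0.22). Those of the enzymes reach down to 0.453 of the model level for Psat1 and 0.428 for Phgdh, and both include no change. The replicate numbers were taken to pair QJSB with model libraries by the correlations described in the processing. That pairing is uncertain, since only 2 of 6 closest matches were same-numbered. With the number as a block the log2 fold change of Phgdh was -0.62 with an unadjusted p of 0.0166 by edgeR. This passed the study's cutoff, while the edgeR adjusted p was 0.445. Without QJSB 1, Psat1 stood at -0.83 (unadjusted p = 0.00629, edgeR adjusted p = 0.180) and Phgdh at -0.97 (unadjusted p = 0.00141, edgeR adjusted p = 0.156), and Atf4 too passed the unadjusted cutoff at -0.70. Over the 13 alternatives the adjusted p ranged from 0.18 to 1 for Psat1 and from 0.156 to 1 for Phgdh. QJSB 1 also differed broadly from QJSB 2 and 3. Its late neutrophil markers summed to 7344 CPM against 37812 and 28111 CPM in QJSB 2 and 3, and its endoplasmic reticulum chaperones to 7051 against 4358 and 5195 CPM. Stromal and endothelial markers summed to 734 against 236 and 232 CPM, and p53 targets to 423 against 922 and 691 CPM. Promyelocyte markers were closer, at 9062 against 8876 and 8239 CPM. The part of these differences in the result was not tested.

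Against normal, QJSB mice had Psat1 1.95-fold (log2 fold change 0.96, SE 0.22, edgeR adjusted p = 0.0102) and Phgdh 2.05-fold higher (1.03, SE 0.28, edgeR adjusted p = 0.0192), the latter not called without any 1 of the normal libraries. Leucogen against normal gave -0.57 for Psat1 (edgeR adjusted p = 0.0023), short of the fold cutoff though called lower in 5 of 14 settings, and -0.06 for Phgdh (interval -0.36 to 0.24). The direct test of QJSB against leucogen gave 1.52 for Psat1 (SE 0.22, edgeR adjusted p = 0.00373) and 1.08 for Phgdh (SE 0.27, edgeR adjusted p = 0.0210). Without leucogen 1 or leucogen 3, Psat1 was the only gene of the 9 still called in this comparison, and Phgdh was lost without leucogen 2 as well.

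Asns (chr6:7675169-7693254) makes asparagine from aspartate and glutamine and is among the best known Atf4 targets. Its level was 51.3, 43.1 and 45.9 CPM in normal, 26.1, 52.5 and 93.9 CPM in model, 55.2, 74.9 and 65.5 CPM in QJSB and 26.0, 43.6 and 27.5 CPM in leucogen libraries. The model libraries ran from below every normal library to above every other library of the 12, and the QJSB libraries all lay above the leucogen ones. Asns was not called in model against normal (log2 fold change 0.30, interval -0.69 to 1.29) or in leucogen against model (-0.82, interval -1.91 to 0.27). It was 1.99-fold higher in QJSB than in leucogen (log2 0.99, SE 0.22, edgeR adjusted p = 0.0121). Without leucogen 1 or 3, and in the joint fit of the 12 libraries, that call was lost. Of the 3 synthesis enzymes, Psat1 and Phgdh were above normal in every model library and Asns in 2 of the 3.

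Among the transcription factors, Atf4 (chr15:80255184-80257540) read 149, 141 and 132 CPM in normal, 111, 145 and 204 CPM in model, 158, 94.4 and 96.1 CPM in QJSB and 93.9, 90.7 and 83.9 CPM in leucogen libraries. The model libraries spread to both sides of normal, and all leucogen libraries lay below every library of the other groups. Model against normal gave a log2 fold change of 0.13 (SE 0.21, interval -0.34 to 0.60), so a change of RNA by more than 1.52-fold upward lies outside the interval. Atf4 was 1.70-fold lower in leucogen than in model (log2 -0.77, SE 0.21, edgeR adjusted p = 0.0244) and 1.55-fold lower than in normal (-0.63, SE 0.09, edgeR adjusted p = 0.000249). The fall against normal was called in each of the 14 settings, and that against model in 9 of them, being lost without model 2 or 3 and without each leucogen library.

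Atf5 (chr7:44812256-44816599), a relative of Atf4 that is induced by it and whose translation is likewise favoured under stress, read 6.52, 4.39 and 6.27 CPM in normal and 10.6, 12.5 and 47.9 CPM in model libraries. It read 14.4, 10.99 and 18.9 CPM with QJSB and 6.75, 8.48 and 7.39 CPM with leucogen. Every library with cyclophosphamide exceeded every normal one, and model 3 exceeded the other 2 model libraries by far. Over the 13 alternatives the log2 fold change of model against normal ran from 1.02 to 2.42. Atf5 rose in model (log2 fold change 2.05, SE 0.62, edgeR adjusted p = 0.0371) and in QJSB against normal (1.38, SE 0.26, edgeR adjusted p = 0.0042), and without model 3 it was still called in model against normal, though not without any 1 of the normal libraries or without the filter on low counts. Leucogen against model gave -1.64 (SE 0.60), which was not called (edgeR adjusted p = 0.0860) but was in 4 of 14 settings. QJSB exceeded leucogen by 0.95 (SE 0.24, edgeR adjusted p = 0.0212), a call lost in the joint fit of the 12 libraries and without QJSB 3, leucogen 1 or leucogen 3. Atf5 shares 82 of its 1993 exon bases with Il4i1 on the other strand, and whether the counting used strand is not given in the sources used here.

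Ddit3 (chr10:127290774-127296288), the factor CHOP that promotes death under prolonged stress, moved the other way. It read 14.8, 20.4 and 15.4 CPM in normal, 7.90, 10.6 and 12.7 CPM in model, 8.43, 5.79 and 9.68 CPM in QJSB and 10.6, 12.5 and 10.3 CPM in leucogen libraries. All 9 libraries with cyclophosphamide lay below all normal ones. Ddit3 fell in model (log2 fold change -0.70, SE 0.23, edgeR adjusted p = 0.0373) and in QJSB (-1.07, SE 0.24, edgeR adjusted p = 0.0087) against normal. Against normal, leucogen gave -0.58, just short of the fold cutoff (edgeR adjusted p = 0.0144), and was called lower in 8 of 14 settings. The call in model was made in 7 of the 14 settings. It was lost without model 1 or 2, without each normal library, with limma-trend on the FPKM, and with total counts in place of TMM, a scaling that moved the median over all tested genes from 0.024 to 0.144 on the log2 scale. The same scaling moved the median of leucogen against model from -0.053 to -0.224. The Ddit3 exons share 68 of 1713 bases with the gene Mars and 13 with Gm4189, both on the other strand.

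Trib3 (chr2:152337422-152344032) encodes a pseudokinase that Atf4 and Ddit3 induce and that restrains both. It read 1.52, 1.37 and 1.65 CPM in normal, 1.85, 3.40 and 12.7 CPM in model, 3.38, 3.76 and 2.37 CPM in QJSB and 0.794, 1.45 and 0.672 CPM in leucogen libraries, on counts between 7 and 221. The model and QJSB libraries exceeded all normal libraries, and model 3 alone was more than 3 times as high as any other library. The model against normal log2 fold change of 1.99 (SE 0.70) was not called (edgeR adjusted p = 0.0541). It was called higher in 4 of 14 settings, with DESeq2, with total counts, in the joint fit and without model 1. Trib3 was lower in leucogen than in model (-2.59, SE 0.77, edgeR adjusted p = 0.0424), a call that was lost without a filter on low counts, without model 3 and without leucogen 1, 2 or 3. QJSB exceeded normal by 1.08 (SE 0.29, edgeR adjusted p = 0.0198) and leucogen by 1.66 (SE 0.40, edgeR adjusted p = 0.0163), and the former was lost with the replicate block, in the joint fit of the 12 libraries, without each normal library and without QJSB 2, the latter in the joint fit and without leucogen 1 or 3.

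Chac1 (chr2:119351229-119354381), which breaks down glutathione, read 1.16, 0.891 and 1.38 CPM in normal, 1.15, 4.54 and 6.81 CPM in model, 3.49, 2.55 and 3.17 CPM in QJSB and 2.94, 2.97 and 2.69 CPM in leucogen libraries. Model 1 lay within the normal range, and every other library with cyclophosphamide lay above it. The log2 fold change against normal was 1.86 in model (SE 0.60, edgeR adjusted p = 0.0360), 1.43 in QJSB (SE 0.31, edgeR adjusted p = 0.0072) and 1.34 in leucogen (SE 0.30, edgeR adjusted p = 0.00381). The call in model was made in 8 of the 14 settings and was lost without model 2 or 3, without each normal library and with limma-trend on the FPKM. That in leucogen was lost only in the joint fit of the 12 libraries. Chac1 was the only gene of the 9 that edgeR called higher than normal in leucogen, and it differed little between leucogen and QJSB (0.08, interval -0.55 to 0.71). Its counts were low, from 13 to 118 per library.

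Sesn2 (chr4:132492032-132510501), a brake on mTORC1 that Atf4 and p53 both induce, read 10.6, 8.09 and 10.5 CPM in normal and 7.62, 8.22 and 15.9 CPM in model libraries. The QJSB libraries read 7.35, 13.1 and 9.80 CPM and the leucogen libraries 3.97, 6.38 and 4.13 CPM. Normal, model and QJSB overlapped one another, and the leucogen libraries lay below all of them. Sesn2 was lower in leucogen than in model (log2 fold change -1.12, SE 0.34, edgeR adjusted p = 0.0367), normal (-0.98, SE 0.23, edgeR adjusted p = 0.0045) and QJSB, which exceeded leucogen by 1.04 (SE 0.29, edgeR adjusted p = 0.0299). The call against model was lost with the replicate block and without model 3, leucogen 1 or leucogen 3, and that against QJSB without QJSB 2 or 3 and without leucogen 1 or 3.

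The 9 genes were spread unevenly within the model group. Model 3 was the highest model library for 9 of the 9 genes, while it was the highest for 36.7% of 13843 genes with a mean of at least 1 CPM, and model 1 was the lowest for 7 of the 9. Other groups leaned to 1 library as well. Leucogen 2 was the highest of its group for 7 of the 9 (38.5% of the 13843 genes), normal 1 for 6 (32.7%) and QJSB 1 for 4 (40.9%). The SD of log2 CPM among model libraries was 1.38 for Trib3, 1.27 for Chac1, 1.19 for Atf5 and 0.92 for Asns, beside a median of 0.27 over all these genes. It was 0.38 for Psat1 and 0.29 for Phgdh. In the normal group the SD of these 6 genes lay between 0.12 and 0.31. Model 3 also held the most promyelocyte marker counts of the model group, 9601 CPM against 6901 and 6664 CPM; the part of these cells in the spread was not tested.

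Without model 3, model against normal still called Atf5, Ddit3, Psat1 and Phgdh, and the log2 fold changes of Atf4, Asns and Sesn2 became -0.12, -0.24 and -0.29. Leucogen against model then called Psat1 and Phgdh only. Leaving out leucogen 1 or leucogen 3 instead gave the same 2 genes, and leaving out leucogen 2 gave Sesn2 besides. These calls are not set beside the share of all genes called in the same fits. The median log2 fold change of the 9 in QJSB against model went from -0.45 to 0.10.

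**Figure D3:**
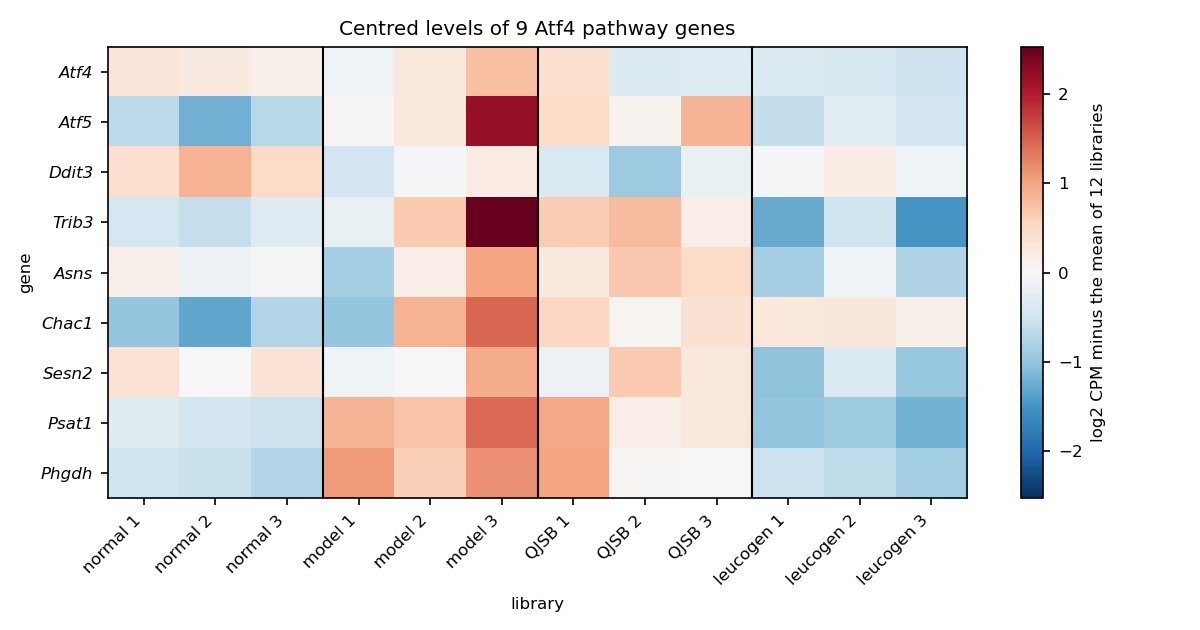
Level of each gene in each library as log2 CPM minus the mean of the gene over the 12 libraries, red above and blue below that mean. Model 3 is above the mean for all 9 genes, Ddit3 is highest in the normal libraries, and Psat1 and Phgdh are below the mean in all normal and leucogen libraries.

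The sensors and brakes upstream of Atf4 were examined next. Counts in this and the following lists are to be read beside the shares of all genes called. In model against normal these were 16.1% higher and 19.0% lower. In leucogen against model 11.5% were lower and 23.1% were called in either direction, and in QJSB against leucogen 12.9% were higher. These shares come from the main fits with every library kept, and not from the fits without model 3. Of the 6 genes for eIF2alpha kinases and phosphatase subunits, 1 rose and 2 fell in model against normal. Ppp1r15a, the inducible subunit that reverses eIF2alpha phosphorylation and is itself an Atf4 target, had a mean of 86.2 ± 38.4 CPM (SD, n = 3) in normal, 5.40 ± 2.61 CPM in model, 6.61 ± 2.52 CPM in QJSB and 4.09 ± 2.04 CPM in leucogen libraries. Its log2 fold change in model was -3.98 (SE 0.50, edgeR adjusted p = 0.00115). Eif2ak1, the haem-regulated kinase abundant in red cell precursors, had 290 ± 41.2 CPM in normal and 88.6 ± 9.48 CPM in model libraries (-1.70, SE 0.15, edgeR adjusted p = 7.17e-05), beside the fall of all 11 erythroid markers tested (median log2 fold change -5.44); the part of erythroid cells in it was not tested. Eif2ak2, the kinase that senses double-stranded RNA, rose by 0.63 (SE 0.16, edgeR adjusted p = 0.0137). Eif2ak3 (-0.24), Eif2ak4 (0.04) and Ppp1r15b (-0.02) were not called. In leucogen against model 0 of these 6 were called, and in QJSB against leucogen only Eif2ak1 was, at 0.61 (SE 0.14, edgeR adjusted p = 0.0134).

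Of the 8 subunits of eIF2 and its exchange factor eIF2B, Eif2b1 (0.82) and Eif2s2 (0.61) rose in model against normal. In leucogen against model 4 of the 8 fell, Eif2b1 by 1.10 and Eif2b2 by 1.00 on the log2 scale among them. In QJSB against leucogen 5 of the 8 were higher in QJSB. Of 9 bZIP factors that can pair with Atf4, 3 rose and 1 fell in model against normal, where 35.1% of all genes were called. The largest rises were those of Cebpb (1.68, SE 0.33) and Cebpa (1.57, SE 0.15), both myeloid factors, and of Batf (0.85, SE 0.22).

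Other genes of amino acid supply moved with Psat1 and Phgdh in part. Of 13 listed genes 10 could be tested in model against normal, and 5 of these rose with 0 falling (median log2 fold change 1.01). Shmt2, which takes serine on to glycine in mitochondria, went from 35.8 to 113 CPM (log2 1.67, SE 0.34, edgeR adjusted p = 0.00672). Shmt1, its cytosolic counterpart, rose by 1.46 (SE 0.26) and the proline synthesis gene Pycr1 by 1.98 (SE 0.68), the latter from 0.561 to 2.21 CPM. In leucogen against model 5 of 10 fell, with Shmt2 at -1.94 (SE 0.37), Aldh18a1 at -1.66 (SE 0.37) and Pck2 at -1.37 (SE 0.21), and in QJSB against leucogen 6 of 10 were higher in QJSB. In QJSB against model 0 of 11 were called. The summed level of the list was 644 CPM in model 3 against 373 and 298 CPM in model 1 and 2, beside 228 to 245 CPM in normal and 165 to 199 CPM in leucogen libraries. Without model 3, 4 of 10 rose against normal and 4 of 10 fell in leucogen against model.

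Amino acid transporters were mixed in model against normal, with 2 of 8 tested rising and 2 falling. Slc1a4, a carrier of serine and other neutral amino acids, rose by 2.42 (SE 0.54), and Slc7a1, a carrier of arginine and lysine, by 1.03 (SE 0.31). Slc6a9, a glycine carrier that supplies haem synthesis, fell from 106 to 4.02 CPM (log2 -4.70, SE 0.33). In leucogen against model 5 of 8 fell and 0 rose, with Slc1a4 at -2.35 (SE 0.55), Slc7a5 at -2.16 (SE 0.56) and its partner chain Slc3a2 at -1.28 (SE 0.34). QJSB exceeded leucogen for Slc7a5, Slc3a2 and Slc1a5. Model 3 stood apart here too, with a sum of 1082 CPM against 577 and 539 CPM in model 1 and 2, on either side of the 728 to 761 CPM of normal libraries and above the 399 to 510 CPM of leucogen libraries. With model 3 left out, 1 transporter rose and 5 fell in model against normal (median -0.69), and 4 of 8 fell in leucogen against model.

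Of 10 other reported Atf4 targets tested, 7 rose and 0 fell in model against normal (median 1.05), with Stc2 at 3.50 (SE 0.66), Nupr1 at 2.14 (SE 0.42) and Vldlr at 1.90 (SE 0.24). In leucogen against model 7 fell and 1 rose, and Ddit4, an mTORC1 inhibitor that glucocorticoids also induce, went from 18.8 to 2.40 CPM (log2 -2.96, SE 0.35). The sums of this list were 390, 331 and 514 CPM in model 1 to 3, and without model 3 the counts were 6 rising and 0 falling against normal, and 3 falling and 1 rising in leucogen against model. These counts were made on genes for which Atf4 is not the sole regulator.

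Of 16 endoplasmic reticulum chaperones and sensors, 13 rose and 0 fell in model against normal, where 16.1% of all genes were called higher (median log2 fold change 0.92), and without model 3 it was 12 and 0. Sdf2l1 rose by 2.05 (SE 0.18), Calr by 1.83 (SE 0.21) and Pdia6 by 1.80 (SE 0.11). Their sum lay at 2952 to 3438 CPM in normal, 5767 to 7068 CPM in model, 4358 to 7051 CPM in QJSB and 3582 to 3918 CPM in leucogen libraries. In leucogen against model 9 of the 16 fell and 0 rose, and in QJSB against leucogen 8 were higher in QJSB. Of 8 mitochondrial chaperones and proteases, 3 rose in model against normal (Hspa9, Clpp and Lonp1) and 5 fell in leucogen against model. Of 10 p53 targets, another group to which Sesn2 is counted, 1 rose (Eda2r) and 2 fell (Trp53inp1 and Sesn1) in model against normal. In leucogen against model 1 rose and 1 fell. Of all genes, 35.1% were called in the former comparison and 23.1% in the latter.

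**Figure D4:**
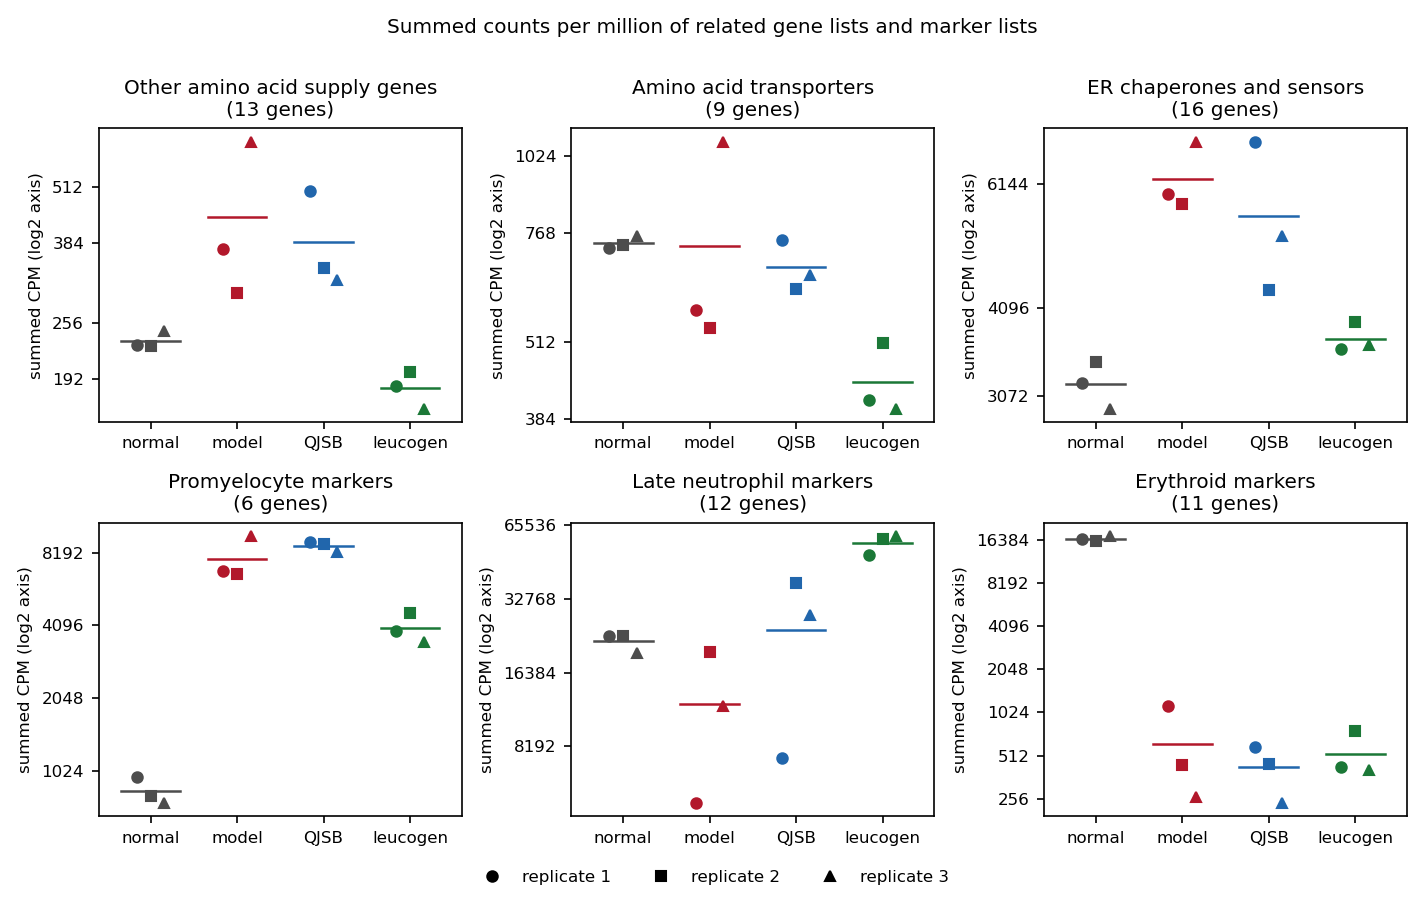
Summed CPM of 3 related gene lists and 3 marker lists in every library, on log2 axes, with points for mice (shape giving the replicate number) and lines for arithmetic group means. Amino acid supply genes and chaperones are lower in all leucogen than in all model libraries. For the chaperones, leucogen libraries still lie above normal ones. Promyelocyte markers are lowest in normal libraries, and erythroid markers are high only in normal libraries.

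Cell type markers also differed between the groups, some along with these genes and others not. All 6 promyelocyte markers rose in model against normal (median log2 fold change 3.16), 5 of the 6 fell in leucogen against model (median -0.91), and 4 of the 6 were higher in QJSB than in leucogen (median 1.15). In leucogen against normal 6 of 6 promyelocyte markers were higher (median 2.26). Psat1 lay below normal in all 3 leucogen libraries and Phgdh overlapped normal. Of 12 late neutrophil markers, 8 were called higher and 0 lower in leucogen than in model, where 23.1% of all genes were called in either direction. Their sum lay at 19600 to 23184 CPM in normal, 4811 to 19946 CPM in model, 7344 to 37812 CPM in QJSB and 49273 to 58963 CPM in leucogen libraries. Of 10 proliferation markers 4 fell and 0 rose in model against normal, and of 9 B lineage markers 8 fell. In the same comparison 3 of 10 monocyte and macrophage markers rose and 3 fell, 1 of 6 T and NK markers rose and 5 fell, 3 of 4 plasma cell markers fell, and 1 of 10 stromal and endothelial markers rose. Markers with 0 counts in at least 1 library included Cd79a, Ms4a1, Igll1, Pax5, Cd3e, Cd3g, Trac, Tnfrsf17 and Mzb1, whereas all promyelocyte, late neutrophil and erythroid markers in the table were counted in every library. The part of cell composition in the differences of the 9 genes was not tested.

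Genes with the most similar pattern were sought among 10085 genes with a mean of at least 5 CPM, by the root mean square difference of centred log2 CPM over the 12 libraries. For Psat1 the nearest included the chaperone Pdia4 (0.199) and Phgdh itself (0.236). For Phgdh they were Ssr2 (0.197) and Rpn1 (0.199), which act in protein entry and glycosylation in the endoplasmic reticulum, and Idh2 (0.207), a mitochondrial dehydrogenase. For Atf4 they were Mak16 (0.181), the cysteinyl-tRNA synthetase Cars (0.183) and Hax1 (0.185). For Asns they were Ctsd (0.302), Plk1 (0.303) and Sesn2 (0.305), and for Sesn2 they were Junb, Gnas and Ccnb2 (0.239 to 0.244). Atf5 had no neighbour as close, with Tgm1 at 0.355, and Ddit3 lay nearest to Rpgrip1l (0.203). Trib3 and Chac1 were below the minimum of 5 CPM.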

How the data were processed

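RNA of bone marrow from 12 mice was analysed, 3 in each of 4 groups. The authors depleted ribosomal RNA, built stranded libraries and aligned the reads with HISAT2 to GRCm38 (mm10 in the submitters' processing notes). The program that counted reads is not given in the sources used here. The authors deposited a whole-number count without normalization and an FPKM for each gene and library, and 0 columns of samples were left unused. The deposited counts were used for the tests and the deposited FPKM for levels between genes.

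Counts were tested 2 groups at a time with edgeR 4.0.16 in R 4.3.3 (TMM, filterByExpr, robust glmQLFit, glmQLFTest), with Benjamini-Hochberg adjustment over all genes tested. Intervals are 95% confidence intervals. Alternatives were DESeq2 1.42.0, DESeq2 size factors, total counts, no filter, a joint fit of the 12 libraries, a block for the replicate number, limma-trend (limma 3.58.1) on the FPKM, with 0.1 added before taking log2 and genes averaging under 0.1 dropped, and leaving out every library in turn. The tests were checked on simulated counts. Log2 CPM used a prior count of 2. Depth limits counting error only, and the spread between mice exceeded it in every group. Replicates are separate mice.

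The 9 genes and 18 further lists (180 genes in all, 179 found by symbol) were chosen with earlier results of these data known. All 9 genes are named, of each other list at most the 3 largest called changes, and all kinases and phosphatase subunits. Cell type lists were used for counts of calls, medians and sums, and no cell type was assigned. Genes of similar pattern passed over unnamed gene models and receptor segments. A few genes that these rules would name are not reported here. Doses were taken from the study's methods.

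Same-numbered libraries of QJSB and model deviated together from their group means (correlations 0.453, 0.136 and 0.103 over genes), as did those of QJSB and leucogen (0.174, 0.157 and 0.110). Each exceeded 0.1, so the numbers were taken to pair these libraries. The same-numbered library was the closest match in 6 of 6 cases for QJSB and leucogen. For QJSB and model it was so in only 2 of 6. The same 2 of 6 held for leucogen and model, which were not taken as paired. A pairing of QJSB with model is therefore uncertain. The pairing comes from these values alone.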

Additional observations from a re-analysis of the deposited data

How the results depend on the processing

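Each value of the 9 genes in the 6 comparisons was recomputed under 13 alternatives. Of 378 values from another tool, scaling, filter, fit or unit, 349 kept their direction and their side of the cutoff, 15 became called, 12 lost their call and 2 changed direction. Of 324 values with a library left out, these numbers were 253, 10, 46 and 15.

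Ddit3 in leucogen against model turned to -0.057 with total counts and to -0.044 on FPKM. With a library left out, log2 fold changes that changed direction ranged as follows. Model against normal gave -0.12 to 0.33 for Atf4, -0.24 to 0.66 for Asns and -0.29 to 0.33 for Sesn2, each reversed without model 3. QJSB against model gave -1.05 to 0.34 for Atf5, -1.37 to 0.26 for Trib3, -0.90 to 0.10 for Chac1 and -0.31 to 0.33 for Sesn2, reversed without model 3 (Sesn2 also without QJSB 1), and -0.18 to 0.72 for Asns, reversed without model 1. Leucogen against model gave -0.047 to 0.30 for Ddit3 (without model 1) and -0.97 to 0.053 for Chac1 (without model 3). Sesn2 in QJSB against normal ranged from -0.16 to 0.25 (without normal 2 or QJSB 2), Phgdh in leucogen against normal from -0.13 to 0.013 (without leucogen 3) and Chac1 in QJSB against leucogen from -0.032 to 0.21 (without QJSB 1).

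The count of members called went from 5 to 3 on FPKM in model against normal. In leucogen against normal it went from 3 to 5 with total counts, to 5 without a filter and to 6 on FPKM, and in QJSB against leucogen from 6 to 3 with all 12 libraries in one fit. The cause was not tested. The counts in this and the next paragraph are not set beside the share of all genes called in the same setting. They therefore do not show whether only the members or the whole table gained or lost calls. With a library left out the count ran from 2 to 5 in model against normal, 0 to 0 in QJSB against model (0 to 3 at the unadjusted cutoff), 2 to 7 in leucogen against model, 4 to 7 in QJSB against normal, 3 to 6 in leucogen against normal and 1 to 6 in QJSB against leucogen. Of these calls, without any 1 of the normal libraries model against normal retained Psat1 and Phgdh, without model 3, leucogen 1 or leucogen 3 leucogen against model retained Psat1 and Phgdh, and without leucogen 1 or 3 QJSB against leucogen retained Psat1; fewer libraries entered these fits.

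With the replicate block, model had 5 members called against normal, QJSB 5 and leucogen 3. Against model QJSB had 0 (1 at the unadjusted cutoff) and leucogen 4, and between both drugs 6 were called. The block lost Sesn2 in leucogen against model and Trib3 in QJSB against normal, groups whose numbers did not pair by the check, and it changed no other call of the 9 genes at the adjusted cutoff. Low counts of Trib3 and Chac1 and 3 mice a group limit what could be detected.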
